A study of Mus musculus with 3 samples.

Results

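Retinoid signalling was described through 9 genes, the retinoic acid receptor genes Rara, Rarb and Rarg, the partner receptor gene Rxra, the retinoic acid binding protein genes Crabp1 and Crabp2, the synthesis gene Aldh1a2, the breakdown gene Cyp26a1 and the retinol uptake gene Stra6. Probes were taken as members where the scanner file of any array gave one of these symbols as the gene name of a non-control spot. All 9 genes were found, through 14 probes of 41174, among 27537 gene labels with a kept value on every array. Of the 14 probes, 12 carried a member's name in all 3 files, and 2 Rarg probes carried it only in the file with the newer design annotation. The RefSeq names added no further probe.

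Total RNA of 3 mouse cell samples was hybridised to 1-colour Agilent arrays with Cy3 label, 1 array per group. They came from p53-null mouse embryonic fibroblasts (p53-null MEF), from embryonic stem cells (ES cells) and from fibroblasts with p53, here MEF, named wild type in the series design. All 3 samples carried a Nanog-GFP reporter, in which a fluorescent protein reports activity of the pluripotency gene Nanog. The labels do not say how p53 was removed, nor the embryonic age, the passage or the ES cell line. By the design both p53-null MEF and ES cells are set against MEF, so the comparisons share the MEF array.

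Retinoic acid is made from vitamin A (retinol). Cells take up retinol, dehydrogenases oxidise it to retinal, and aldehyde dehydrogenases such as that of Aldh1a2 make retinoic acid, which Cyp26 enzymes break down. Retinoic acid binds RAR proteins paired with RXR proteins on DNA, at direct repeats of a short half-site. In ES cells it is a strong signal to differentiate, and in the embryo it patterns the trunk and the limbs, from which fibroblast cultures are commonly made.

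The markers of the labelled cell types were found on their arrays. Spots well above background numbered from 26198 to 27954 of 43379, and 0 were saturated. Signals are in the scanner's intensity units, and the lowest of a probe marked well above background at 50% or more of its spots was 16.0 units in p53-null MEF, 10.1 in ES cells and 12.4 in MEF (mean of log2 values over its spots). The 75th percentile of the signals was 1040 units in p53-null MEF, 833.6 in ES cells and 828 in MEF. Signals are printed unscaled, and every log2 difference and fold below is taken after dividing by that percentile. Of 7 ES cell markers, 1 was well above background in p53-null MEF, 7 in ES cells and 3 in MEF. All 8 fibroblast markers were well above background on both fibroblast arrays, and 7 of them were so in ES cells too. Their summed signal was 441700 units in p53-null MEF, 6567 in ES cells and 470400 in MEF, so level rather than detection set the arrays apart. Trp53, the gene for p53, gave 56.3 units in p53-null MEF, 4902 in ES cells and 1304 in MEF at its brighter probe, while the other probe gave 260.5 units in p53-null MEF, 304 in ES cells and 572 in MEF. Which stretch of Trp53 is missing is not given in the labels. The fibroblast arrays differed in other ways too. They were scanned at different times, per the file headers, with a median local background of 44 units for p53-null MEF and 27 for MEF. Xist, the RNA of the inactive X chromosome, gave 7437 units in p53-null MEF and 2.78 in MEF, where it was not well above background, and the Y chromosome gene Eif2s3y gave 4.07 units in p53-null MEF, not well above background, and 1236 in MEF. The summed signal of 6 macrophage markers was 293 units in p53-null MEF and 2255 in MEF, with Adgre1, Csf1r and Trem2 at background in p53-null MEF and Ptprc at background in MEF. That of 4 glial and neural crest markers was 616 units in p53-null MEF and 3984 in MEF, with Sox10 and Foxd3 at background in p53-null MEF. That of 3 keratinocyte markers was 60.4 units in p53-null MEF and 523 in MEF, with Krt5 at background in p53-null MEF. Other lists had higher unscaled sums in p53-null MEF. The sum of 4 endothelial markers was 684 units in p53-null MEF and 405 in MEF, with Pecam1 and Cdh5 at background on both. That of 6 primitive endoderm and early lineage markers was 1905 units in p53-null MEF and 1558 in MEF. Of these, Gata4, Sox17, T and Cdx2 were at background on both. Gata6, which made up most of both sums, gave 1829 units in p53-null MEF and 1531 in MEF. After scaling Gata6 was not higher in p53-null MEF (-0.07 ± 0.20 on the log2 scale). Genotype, scan, any difference of slide and embryo sex cannot be told apart for these arrays. The part of these markers in the results below was not tested. With 1 array per group no test between groups was possible. Errors given as ± on a log2 difference come from the scanner software's error model, which sets about 10% for a bright signal, and cover the measurement of the spots alone.

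Rarb and Cyp26a1 are textbook targets of retinoic acid, and the promoter sequence of both is shown because Rarb was brightest in p53-null MEF and Cyp26a1 was well above background in ES cells alone. RefSeq promoter windows of GRCm38.p6 were searched on both strands for a pair of half-sites in the same orientation, a half-site being AGGTCA or else AGTTCA, or else GGGTCA or else GGTTCA. With 5 bases between half-sites, an arrangement named DR5, the pair was found in 32 of 32851 windows of 300 bases, or 0.0974%. Of 16 windows for 8 member genes, 2 held it, that of Rarb and that of Cyp26a1. No window of Crabp2 was at hand. With 1 or 2 bases between the half-sites (DR1 and DR2), 0 of the 16 windows held a pair, against 0.222% and 0.268% of all windows. The 250 bases before each annotated start follow, 5′ to 3′ in the direction of the gene, with the half-sites in capitals.
Rarb, chr14:16575477-16575726, minus strand: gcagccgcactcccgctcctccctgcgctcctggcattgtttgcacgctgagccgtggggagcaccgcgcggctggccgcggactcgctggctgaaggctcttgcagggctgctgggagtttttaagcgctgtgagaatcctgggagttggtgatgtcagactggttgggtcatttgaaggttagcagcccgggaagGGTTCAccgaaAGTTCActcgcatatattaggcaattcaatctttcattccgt
Cyp26a1, chr19:37697558-37697807, plus strand: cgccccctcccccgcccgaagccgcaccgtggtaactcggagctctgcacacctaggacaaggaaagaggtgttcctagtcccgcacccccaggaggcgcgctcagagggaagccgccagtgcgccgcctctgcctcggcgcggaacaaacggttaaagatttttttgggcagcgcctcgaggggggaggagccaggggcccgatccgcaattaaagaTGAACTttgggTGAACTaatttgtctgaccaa
In Rarb the repeat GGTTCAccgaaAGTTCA ran from 53 to 37 bases before the start. In Cyp26a1 the repeat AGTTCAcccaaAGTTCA lay on the opposite strand, from 32 to 16 bases before the start, so that the printed strand shows its complement. A match of letters is a description of these windows and not of binding. As both genes are textbook targets of retinoic acid, their matches are no test of enrichment among the members.

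The signals come from 60-base probes, of which 4 are shown as examples, for Rarb, Rarg, Crabp1 and Cyp26a1. For Rarb and Rarg these are dimmer probes, not the brightest ones by which the genes were counted. All are lower case, in the direction of the transcript. Probe positions refer to mouse build mm8, as annotated in the file of the p53-null MEF array. They were not placed in exons or untranslated regions here. The Rarb and Rarg probes shown span 26709 and 2641 bases of the genome with 60 bases of sequence, so each crosses a gap between stretches of the gene.
Rarb, chr14:15341785-15368493, minus strand: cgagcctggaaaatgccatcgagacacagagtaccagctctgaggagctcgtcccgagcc
Rarg, chr15:102064224-102066864, minus strand: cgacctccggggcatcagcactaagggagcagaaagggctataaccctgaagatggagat
Crabp1, chr9:54566522-54566581, plus strand: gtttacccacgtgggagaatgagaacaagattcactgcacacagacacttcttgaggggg
Cyp26a1, chr19:37766220-37766279, plus strand: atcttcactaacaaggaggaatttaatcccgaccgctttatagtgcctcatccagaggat

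**Figure D1:**
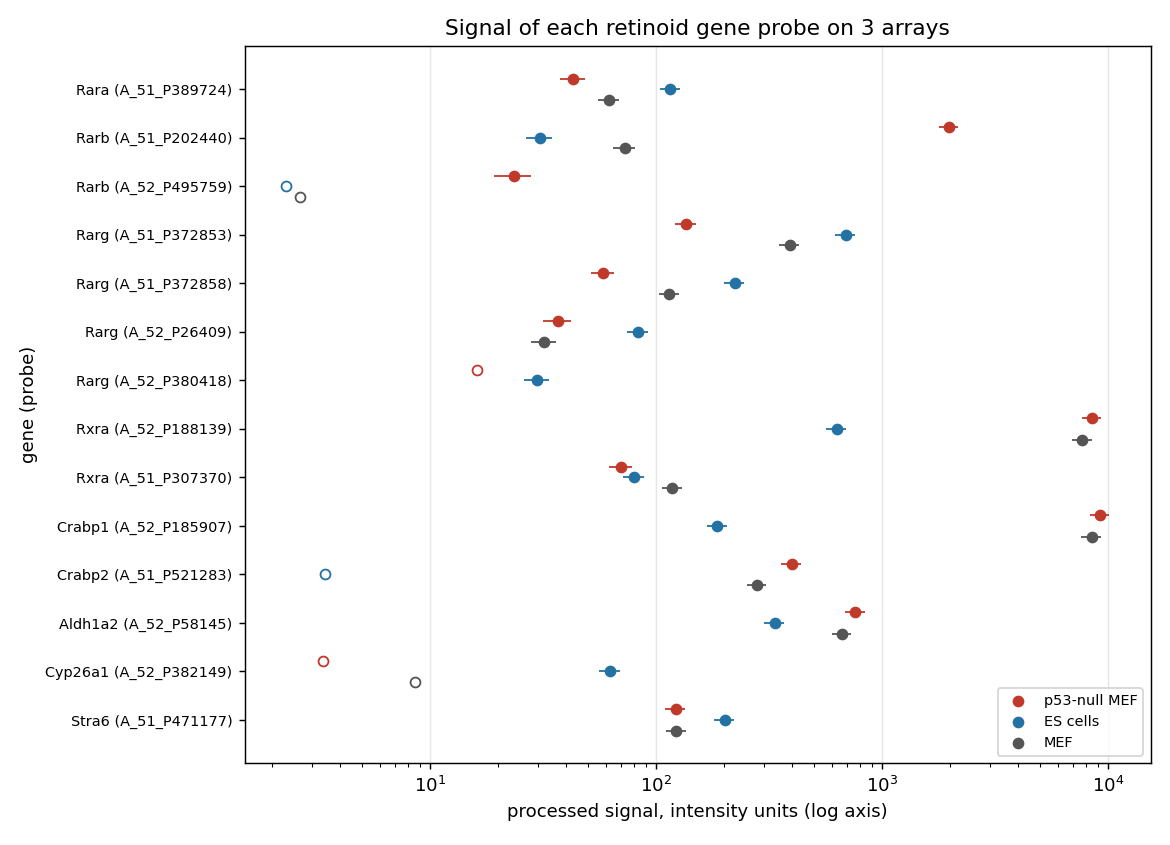
Processed signal of the 14 member probes in intensity units (log axis), with 1 point per array, p53-null MEF above ES cells above MEF, and bars for the error model. Open points were not well above background and are drawn without bars, and a probe's missing point was left out as uneven. Rarb stands at 1981 units in p53-null MEF, against 72.7 in MEF.

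Between the fibroblast arrays, Rarb was 21.9-fold higher in p53-null MEF and Rarg 3.61-fold lower (but at 0.13 on the log2 scale with spike-in scaling), while the binding proteins, the synthesis gene, the uptake gene and the brighter Rxra probe differed by less than 2-fold. By the brightest probe of each gene, 8 members were measured, of which Rarb alone was higher by 2-fold or more in p53-null MEF and Rarg alone was lower by 2-fold or more. Over all 17392 genes measured here, 18.6% were higher and 16.7% lower by that rule. The members' median log2 difference was -0.20, beside 0.03 over all genes. Spike-in scaling, which put the median of all genes at 2.09, gave 7 members higher and 0 lower. In such bulk samples a difference in the share of cells that express a gene cannot be told apart from a difference in RNA per cell.

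Rarb encodes the receptor RAR beta, whose gene is a direct target of retinoic acid and is often silent in tumour cells. Its brighter probe, chr14:15224264-15224323 on the minus strand, was printed at 10 spots. These gave 1981 ± 57.0 units in p53-null MEF, 30.6 ± 3.52 in ES cells and 72.7 ± 10.1 in MEF (SD over 10 spots of 1 array). The spots ran from 1845 to 2052 units in p53-null MEF with a median of 1988, from 26.6 to 38.8 in ES cells with a median of 29.8, and from 53.1 to 88.1 in MEF with a median of 74.1. The spots of the 3 arrays did not overlap. The log2 difference was 4.45 ± 0.21 between p53-null MEF and MEF and -5.70 ± 0.23 between ES cells and p53-null MEF. The second Rarb probe, shown above and designed on a transcript that the file describes as isoform beta 4, gave 23.6 units in p53-null MEF, 2.31 in ES cells and 2.67 in MEF. It was well above background in p53-null MEF alone. Against the lowest signal well above background on the MEF array this makes p53-null MEF higher by at least 1.52-fold, so it has the same direction with a far lower bound.

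**Figure D2:**
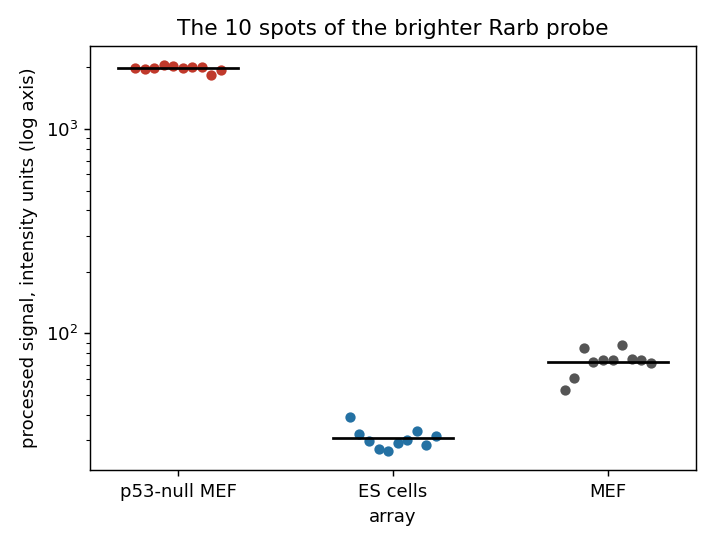
Processed signal in intensity units (log axis) of each of the 10 spots of the brighter Rarb probe on the p53-null MEF, ES cell and MEF arrays. Points are spots of 1 array, not biological replicates, and bars are their means, 1981, 30.6 and 72.7 units. The arrays' spots form separate groups.

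Rarg encodes RAR gamma, the receptor that together with RAR alpha carries much of the retinoic acid response in ES cells. The brighter of its 4 probes, chr15:102063912-102063971, gave 136 units in p53-null MEF, 690.5 in ES cells and 389.9 in MEF. Its log2 difference between p53-null MEF and MEF was -1.85 ± 0.21. The probe shown above gave 58.5 units in p53-null MEF, 223 in ES cells and 115 in MEF, with a difference of -1.30 ± 0.22 between the fibroblasts. The other probes were designed on the 5′ end of a gamma 3 transcript, per the file. Of these, 1 gave 36.8 units in p53-null MEF, 83.1 in ES cells and 32.1 in MEF, a difference of -0.13 ± 0.27 between the fibroblasts that lies within the error. The other gave 16.1 units in p53-null MEF, which is not well above background, gave 29.8 in ES cells and was left out as uneven on the MEF array. The Rarg probes thus disagreed on the size of the difference between the fibroblast arrays, and the 3 measured probes all had their highest signal in ES cells.

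Rara encodes RAR alpha, the most widely expressed of the receptors. Its probe gave 43.1 units in p53-null MEF, 116 in ES cells and 62.2 in MEF. Set against MEF, p53-null MEF was 1.81-fold lower (-0.86 ± 0.24) and ES cells were 1.85-fold higher (0.89 ± 0.21). Both differences exceed 1.96 times the error and stay under 2-fold. With normexp correction they were -0.51 and 0.47 after 75th percentile scaling, and -0.39 and 0.40 after quantile normalization. Spike-in scaling gave 1.12 for both, so p53-null MEF was then not lowest. In the main setting Rara and Rarg had the same order of arrays, with ES cells highest and p53-null MEF lowest. Rarb had p53-null MEF highest and ES cells lowest.

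Rxra encodes RXR alpha, the partner of RAR and of other nuclear receptors. Its brighter probe, chr2:27584900-27584959, gave 8504 units in p53-null MEF, 629.5 in ES cells and 7703 in MEF. The difference between p53-null MEF and MEF there, -0.19 ± 0.20, lies within the error. The dimmer probe, chr2:27581805-27581864, gave 69.97 units in p53-null MEF, 80.0 in ES cells and 118 in MEF. There p53-null MEF was 2.12-fold lower (-1.08 ± 0.23), so the probes do not give 1 answer for this gene.

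**Figure D3:**
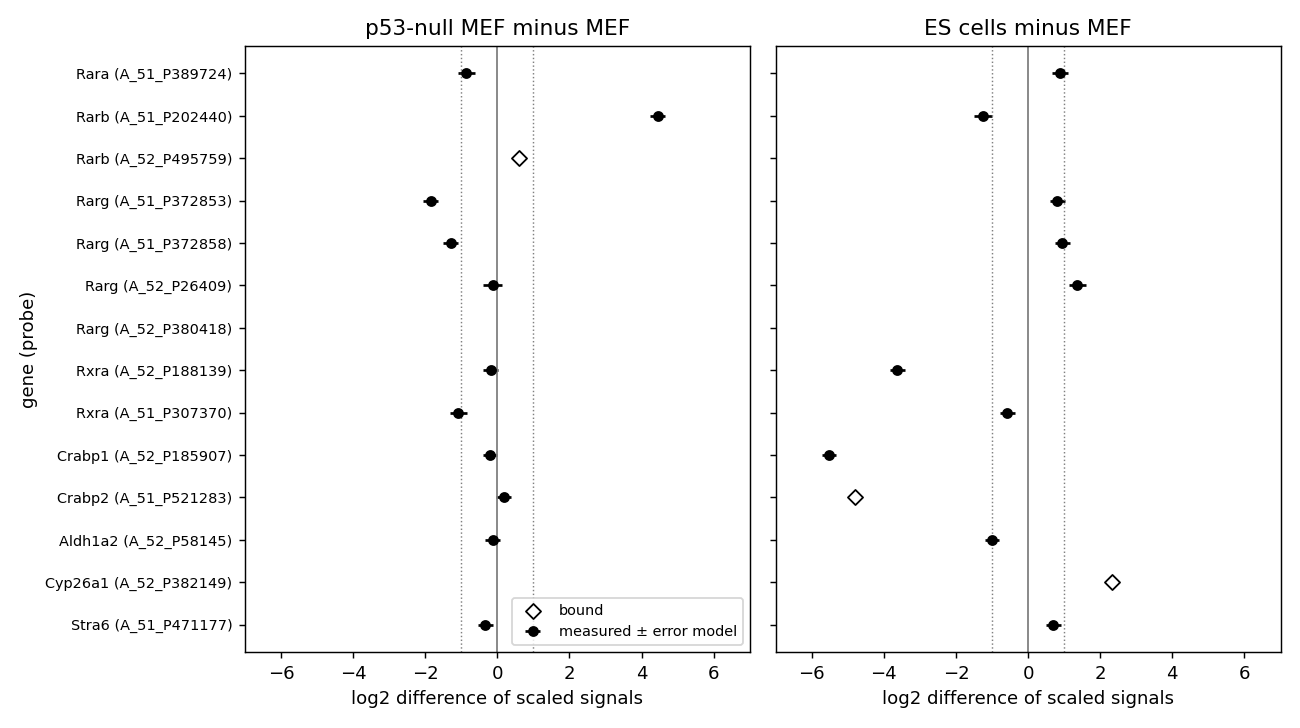
Log2 differences of scaled signals for the 14 member probes, p53-null MEF minus MEF on the left and ES cells minus MEF on the right. Bars are the error model, open diamonds are bounds where 1 array was not well above background, dotted lines mark 2-fold, and a probe with no point had no difference. Rarb lies at 4.45 on the left, and Crabp1 at -5.51 and Rxra at -3.62 on the right.

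The remaining members differed little between the fibroblast arrays. Crabp1 and Crabp2 encode small proteins that bind retinoic acid in the cell. Crabp1 gave 9216 units in p53-null MEF and 8477 in MEF (-0.21 ± 0.20), and Crabp2 gave 399 in p53-null MEF and 280 in MEF (0.18 ± 0.21). Aldh1a2, the main enzyme of retinoic acid synthesis in the early embryo, gave 762 units in p53-null MEF and 665 in MEF (-0.13 ± 0.20). Stra6 encodes a retinol transporter of the cell membrane and is known from human cells as a gene that p53 activates. It gave 122 units in p53-null MEF and 123 in MEF, a scaled difference of -0.34 ± 0.21. None of these 4 genes differed by more than 1.96 times the error. Cyp26a1 gave 3.35 units in p53-null MEF and 8.59 in MEF, was well above background on neither, and gets no fold there.

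ES cells were set against MEF, whose array had the same scan time in its file header. The binding proteins and the brighter Rxra probe were far lower in ES cells, and Cyp26a1 was above background only there. All 9 members were measured, and 1 was higher and 5 were lower in ES cells by 2-fold or more. Over all 18665 genes measured here, 32.9% were higher and 27.3% lower. Among the 5, Aldh1a2 lay at the threshold itself. The median log2 difference of the members was -1.0, beside 0.21 over all genes.

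Crabp1 gave 187 units in ES cells and 8477 in MEF, which is 45.7-fold lower (-5.51 ± 0.20). Crabp2 gave 3.44 units in ES cells, not well above background, and 280 in MEF, which is at least 27.9-fold lower. On the log2 scale this bound is -4.80, against -2.28 and -2.33 in the normexp settings and -6.36 for the signals without a filter. The brighter Rxra probe was 12.3-fold lower in ES cells (-3.62 ± 0.20), whereas the dimmer probe was 1.49-fold lower (-0.57 ± 0.21). Both Rxra probes were lower in ES cells, by very different amounts. Aldh1a2 gave 335 units in ES cells and 665 in MEF (-1.0 ± 0.20). Rarb, with 30.6 units in ES cells and 72.7 in MEF, was 2.38-fold lower (-1.25 ± 0.24), and its second probe was well above background on neither array. The 2-fold call for Rarb was lost with normexp correction, at -0.59 with 75th percentile scaling and -0.68 after quantile normalization, and at -0.74 for the mean of all probes.

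Cyp26a1 encodes the enzyme that clears retinoic acid and is a standard readout of retinoic acid in embryos. It gave 62.9 units in ES cells and 8.59 in MEF, and only the first was well above background. The bound for ES cells is 5.05-fold higher or more, and the probe's own signals differed by 2.86 on the log2 scale. With normexp background correction the difference was 0.79 with 75th percentile scaling and 0.765 after quantile normalization, so the call of 2-fold was lost. Stra6 gave 202 units in ES cells and 123 in MEF (0.70 ± 0.21), and the brighter Rarg probe gave 690.5 units in ES cells and 389.9 in MEF (0.81 ± 0.20). The measured probe on the gamma 3 transcript was 2.58-fold higher in ES cells (1.36 ± 0.24).

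Across the 3 arrays the members fell into differing orders. Crabp1 and the brighter Rxra probe had ES cells lowest, and their fibroblast arrays did not differ by more than 1.96 times the error. Aldh1a2 and Crabp2 also had ES cells lowest and fibroblast arrays that did not differ by more than 1.96 times the error. For Crabp2 the ES cell value is only a bound. For Stra6, ES cells were highest and the fibroblasts did not differ by more than 1.96 times the error. For Rara and the brighter Rarg probe all neighbouring arrays differed by more than 1.96 times the error in the main setting. Patterns were set side by side as the distance between scaled log2 signals centred on each gene's mean over the 3 arrays, among 12356 named genes well above background on every array. The closest members were Rara and Stra6, at a distance of 0.52, yet 505 other genes lay closer to Rara than Stra6 did. The farthest were Rarb and Rarg, at 6.17. The gene most like Rarb was the chemokine gene Cxcl10, at 0.53, with 2940 units in p53-null MEF, 75.2 in ES cells and 151 in MEF. The nearest genes of the other members lay far closer, from 0.007 for Stra6 and the mitochondrial carrier gene Slc25a16 to 0.056 for Crabp1 and the lysyl oxidase family gene Loxl3. They were Aspa for Rara, Trp53i11 for Rarg, Mlkl for Rxra and Pgrmc1 for Aldh1a2. With 3 arrays such likeness is a description of these arrays only.

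Other genes of retinoid handling and response were described from a list of 71, of which 70 were on the array. Between the fibroblast arrays 55 were measured. In p53-null MEF 3 of these were higher and 15 lower by 2-fold or more, and the list's median was -0.44 on the log2 scale, beside 0.03 over all genes. Of all genes, 18.6% were higher and 16.7% lower. Rbp4 and Tgm2 were among the higher genes. Rbp4, which carries retinol in blood, had 6430 units in p53-null MEF and 768 in MEF and was 6.67-fold higher. Tgm2, a transglutaminase, was 2.08-fold higher, and its other probes ran from -0.75 to -0.23 on the log2 scale.

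The class of dehydrogenases and reductases had 15 measured genes, 6 of them lower in p53-null MEF and 0 higher by brightest probe. Second probes of Rdh11, Rdh13 and Rdh14 were higher, at 1.12, 1.395 and 1.51 on the log2 scale. The brightest probes of these genes gave 0.66, -0.39 and -0.73. Second probes of Rdh10 and Dhrs9 gave 0.35 and -0.89. Aldh1a7, a close copy of Aldh1a1, gave 133 units in p53-null MEF and 4046 in MEF, which is 38.3-fold lower (-5.26 ± 0.21). Aldh1a1 itself, a retinal dehydrogenase, gave 1114 units in p53-null MEF and 1402 in MEF (-0.66 ± 0.20). Whether these probes tell the copies apart was not examined. Adh1, an alcohol dehydrogenase that acts on retinol, was 12.04-fold lower in p53-null MEF at its brightest probe, and a second probe differed by -3.53 in log2 units. Aldh1a3, a further synthesis enzyme, gave 93.9 units in p53-null MEF and 499 in MEF, 6.67-fold lower. Dhrs3, which reduces retinal back to retinol and responds to retinoic acid, was 2.11-fold lower (-1.08 ± 0.20) and differed by -0.80 at its other probe.

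Receptors and RXR partners had 13 measured genes, with 5 lower in p53-null MEF and 0 higher. Vdr, the vitamin D receptor gene, was 5.97-fold lower, and the bound for Thrb, a thyroid hormone receptor gene, was 5.41-fold lower or more. Nr1h3, the liver X receptor alpha gene, was lower too. Rora, an orphan receptor gene, was 3.097-fold lower and Pparg, the adipocyte regulator, 2.04-fold lower. By their brightest probes all 7 corepressors and coactivators lay within 2-fold, although other probes of Ncor1 and Ncoa3 reached -1.645 and -1.57 in log2 units. Of 17 measured genes known to respond to retinoic acid, 2 were higher and 4 lower by brightest probe. Rai14 gave -0.48 on the log2 scale at its brightest probe and from -1.80 to 1.63 at others. Meis1 gave -0.62 at its brightest probe and 1.31 at the other. Rarres1 and Rarres2, named as responders to a retinoid, were 4.66-fold and 7.07-fold lower, Hoxb4 5.94-fold lower and Lefty1, a Nodal inhibitor, 2.18-fold lower. The same shares of all genes, 18.6% and 16.7%, apply to these classes. Stra8, a gene that retinoic acid induces in germ cells, was left out as uneven on the MEF array. It gave 3.31 units in p53-null MEF, not well above background, and 1533 in ES cells.

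Of the same list, 57 genes were measured in ES cells against MEF. In ES cells 6 of them were higher and 34 lower by 2-fold or more, and 13 entered as bounds. Of all genes, 32.9% were higher and 27.3% lower. The list's median was -1.47, beside 0.21 over all genes. Oxidation and reduction genes had 10 of 16 lower and 0 higher by brightest probe. Second probes of Rdh13 and Rdh14 were higher, at 1.48 and 0.735 on the log2 scale, where the brightest gave 0.32 and -1.36. Those of Rdh10, Rdh11, Dhrs3 and Adh1 were lower, at -2.90, -1.29, -5.74 and -4.80. Dhrs3 was 55.3-fold lower at 93.8 units in ES cells, and Aldh1a1 was 54.1-fold lower at 26.1 units. Aldh1a7 and Aldh1a3 had 12.5 and 13.4 units in ES cells, close to the lowest detectable signal of that array, and were lower by 325-fold and 37.5-fold. Adh1 was at least 72.0-fold lower, Dhrs9 at least 37.1-fold (-1.24 in log2 units at its other probe), Adh7 at least 7.69-fold, and the embryonic retinol dehydrogenase gene Rdh10 8.02-fold lower. Cyp26b1, the relative of Cyp26a1 active in limb and gonad, had 25.5 units in ES cells and 1177 in MEF, 46.5-fold lower. The breakdown enzymes thus differed in direction between these cells, with Cyp26a1 above background in ES cells and Cyp26b1 brighter in MEF.

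Receptors and partners again had 13 measured genes, with 8 lower in ES cells and 1 higher. The higher one was Rxrg, the gene for RXR gamma, with 1269 units in ES cells and 49.97 in MEF, 25.2-fold higher (4.66 ± 0.22). Rxra thus had the opposite direction at both of its probes. Pparg was 30.2-fold lower in ES cells, Vdr 11.6-fold, the thyroid hormone receptor gene Thra 8.84-fold, Rora 7.16-fold and Thrb at least 6.87-fold. Of the coregulators, 3 of 7 were higher, namely Ncoa3 by 8.78-fold with other probes from 2.32 to 3.20 on the log2 scale, Ncor1 by 1.62 on that scale with other probes from -2.52 to 1.69, and Ncoa7 by 1.19. Of 17 genes known to respond to retinoic acid, 14 were lower and Lefty1, also a gene of pluripotent cells, was 10.5-fold higher. Among the lower genes, Rai1 gave -1.95 on the log2 scale at its brightest probe and 0.50 at the other. Meis1 gave -1.25 and -0.56. Rai14, within 2-fold at its brightest probe, had other probes from -0.99 to 1.23. Rarres1 was 30.1-fold lower, Rarres2 28.8-fold at 11.9 units, again close to that limit, and Nr2f2, an orphan receptor gene of mesenchyme, 17.7-fold with other probes from -4.24 to -2.11 on the log2 scale. Gata6, an endoderm factor, was 14.3-fold lower and Tgm2 8.39-fold, while Hoxb5 and Hoxb4 were at least 27.1-fold and 12.6-fold lower. Rbp4 was 5.14-fold lower in ES cells and Rlbp1, a retinal carrier of the eye, at least 9.12-fold higher. Summed over 8 fibroblast markers the signal was 6567 units in ES cells and 470400 in MEF, with Lum not well above background in ES cells, and the part of this in the list's counts was not tested.

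**Figure D4:**
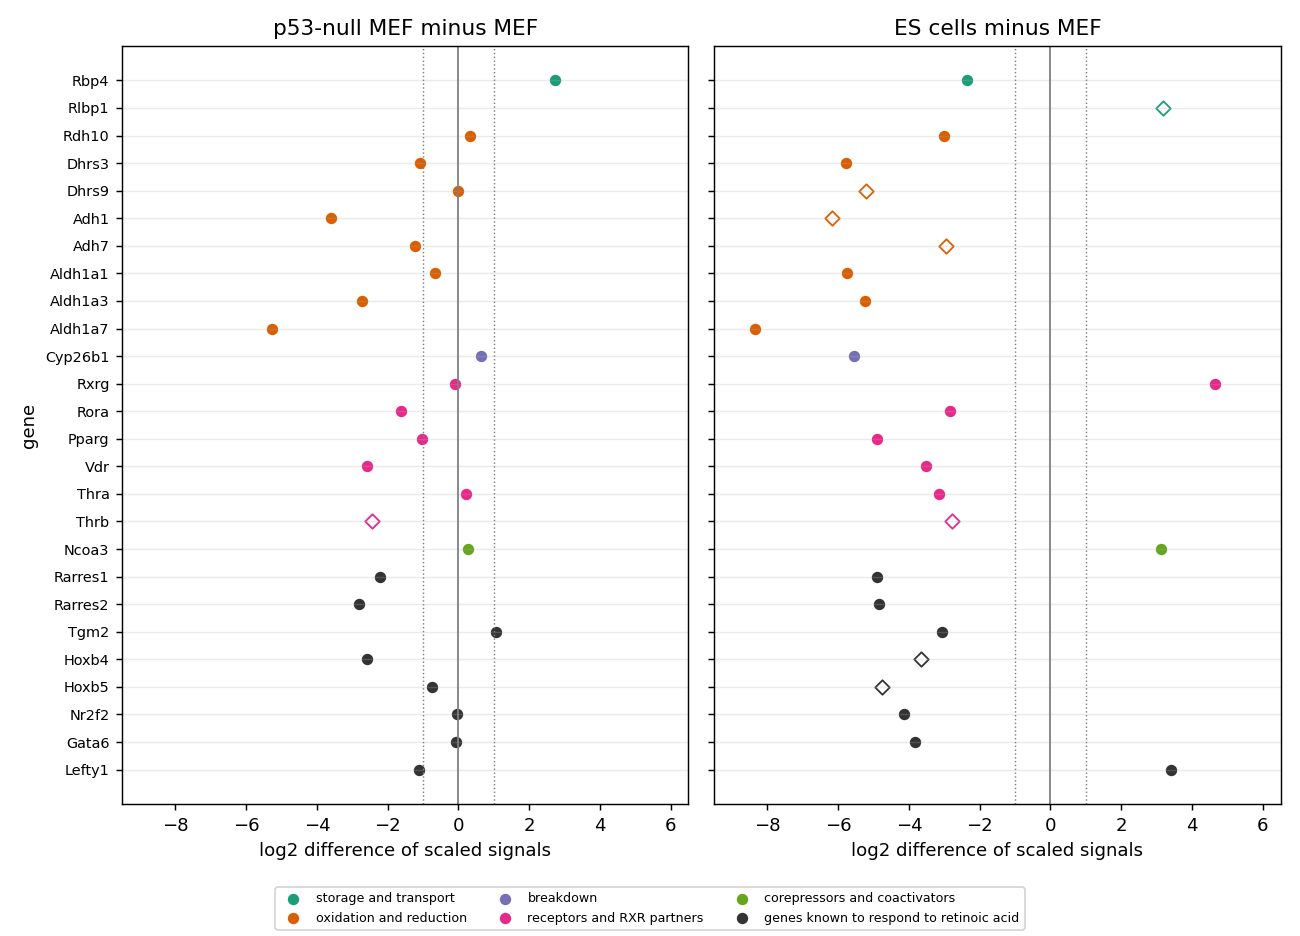
Log2 differences of scaled signals for 26 listed retinoid genes at least 5-fold different in either comparison, p53-null MEF minus MEF on the left and ES cells minus MEF on the right. Points show the brightest probe of each gene, open diamonds are bounds, dotted lines mark 2-fold, and colours give the class. Rbp4 lies at 2.74 on the left and Rxrg at 4.66 on the right, and Aldh1a7 is the lowest point in both.

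The DR5 repeat was also looked up in all genes, after the data had been seen. Of the 31 symbols whose window held it, 9 equalled a gene label with a kept value on every array. Between the fibroblast arrays 6 were measured. Among these 2 were higher and 2 lower in p53-null MEF by 2-fold or more (18.6% and 16.7% of all genes), and the median was 0.01, beside 0.03 over all genes. Without the members, 5 genes were measured, with 1 higher, 2 lower and a median of -0.57. In ES cells against MEF, 1 of 6 was higher and 3 lower (32.9% and 27.3% of all genes), with a median of -0.80. Without the members, 4 were measured, with 0 higher, 2 lower and the same median.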

How the data were processed

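Total RNA of 3 samples was measured on 1-colour arrays. The authors' deposited files hold spot intensity on a linear scale from Agilent Feature Extraction 9.5.3.1, background-subtracted and detrended within each array, per the file headers. Marks such as "well above background" are that software's other output, per the file headers. The authors' deposited value table held the same intensity within ratios of 0.995 and 1.005. Here log2 of the processed signal minus each array's 75th percentile over kept non-control spots was used. Left out were 1639 control spots and 62, 176 and 192 uneven or outlier spots on the p53-null MEF, ES cell and MEF arrays. Spots of a probe were averaged. A gene was counted by its brightest probe, with calls at 2-fold. A dim signal entered as the higher of itself and the lowest signal well above background, giving a bound, which equals the measured difference where the dim signal is the higher. Other retinoid genes were named where at least 5-fold different in either comparison (the rule) or where a count covered 5 or fewer. A few others were named for their role or for a second probe, chosen after their values were seen. For 1 listed gene, which the counts include, values are not reported here. Names came from RefSeq (GRCm38.p6), with 8072 of 41174 probes keeping the file's name. Alternatives used limma 3.58.1 in R 4.3.3, with numpy 2.4.6 and pandas 2.3.3 elsewhere. Scripts were tested on simulated data. The members and lists were chosen with earlier results of these data known. The number of arrays limits the precision, and p-values were not computed.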

Additional observations from a re-analysis of the deposited data

How the results depend on the processing

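Rarb stayed higher in p53-null MEF than in MEF in all 11 alternatives, from 3.60 to 6.43 on the log2 scale, and Crabp1 stayed lower in ES cells, from -5.74 to -5.08. Rxra in ES cells ran from -3.85 to -2.10. Spike-in scaling put the all-gene median at 2.09 in p53-null MEF against MEF, where 98.1% of 2-fold calls were then higher, against 71.2% without scaling and 52.7% in the main setting. It called 84.3% of genes higher and 1.68% lower there, and in ES cells moved that median to 0.44. Under it Rarg was at 0.13, which is -1.97 relative to the median of all genes, so its direction among the fibroblasts depends on that scaling. Rara moved from -0.86 to 1.12 in the same comparison, which is -0.97 relative to that median, so its direction depends on the scaling too.

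In p53-null MEF against MEF, spike-in scaling gave 7 members higher and 0 lower, with a median of 1.78, and 38 listed genes higher and 2 lower, with a median of 1.502. Without scaling the medians were 0.13 for members and -0.11 for listed genes. Without a filter on dim probes 2 members were lower, and 5 listed genes were higher with a median of -0.088. Normexp with quantile normalization gave the listed genes a median of -0.22. In ES cells against MEF, normexp with either normalization left 0 members higher and 3 lower. The members' medians were -0.59 with the 75th percentile and -0.68 with quantile normalization, and the listed genes' -0.94 and -0.99. Spike-in scaling gave 3 members higher and medians of -0.76 and -1.23, the mean of all probes 2 higher and medians of -0.74 and -1.19, and median scaling medians of -1.22 and -1.69, for members and listed genes in that order. Cyclic loess gave the listed genes a median of -1.80, and no filter gave -1.25 with 10 genes higher. The cause of these shifts was not tested. No paired analysis was possible because each group has 1 array and the labels carry no replicate numbers, and no array could be left out. Dim signals such as those of Cyp26a1, Rara and the second Rarb probe are limited by the background.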
